A study of Homo sapiens with 6 samples.

Results

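The 4 HOX clusters of the human genome held 35 of the 11874 Brpf2 peaks listed for RKO, a human colon carcinoma cell line. The peaks were chosen by position alone, but the intervals and gene list were chosen with earlier results of these data known. A peak was taken when it overlapped 1 of 4 hg18 intervals, which were HOXA on chromosome 7 from 27090001 to 27220000, HOXB on chromosome 17 from 43950001 to 44170000, HOXC on chromosome 12 from 52610001 to 52745000 and HOXD on chromosome 2 from 176660001 to 176770000. HOXA had 10 peaks, HOXB 11, HOXC 7 and HOXD 7, and 38 listed HOX genes belong to these clusters. The data are from chromatin immunoprecipitation followed by sequencing in untreated RKO cells under normal growth conditions, with 1 library for Brpf2. The series also has ING2, ING5, H3K4me3, H3 and rabbit IgG libraries, which were not analysed here. With 1 library there is no replicate, so the values below are descriptions without a test between samples. The list gives no read counts, so the depth is unknown.

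Brpf2, also called BRD1, is a scaffold subunit that joins a MYST histone acetyltransferase to its partner subunits, which include ING proteins. Its bromodomain and PHD fingers bind histone tails, and the complexes it forms, chiefly with HBO1, acetylate histone H3. HOX genes encode homeodomain transcription factors that give cells their position along the body axis. Within a cluster they stand in the order of their paralog numbers, and low-numbered genes act more anteriorly than high-numbered ones. HOXA9 and HOXA10 are known from blood progenitors and leukaemia, HOXA13 and HOXD13 from the distal limb and the hindgut and urogenital tract, and HOXB13 from the prostate and distal colon. The order of genes used here is that of RefSeq in GRCh38.p14, in which position rises from HOXA2 to HOXA13, from HOXB1 to HOXB13, from HOXC13 to HOXC4 and from HOXD13 to HOXD1. No gene positions of hg18 were used, so no peak is assigned to a single gene, and that the 4 intervals hold these genes in hg18 was taken as given and not checked.

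RefSeq promoter sequences of GRCh38.p14 were available for 20 of the 38 listed genes, as 26 distinct stretches of 250 bases before a transcription start, and HOXC4 and HOXC5 share 1 of them. The listed genes without an entry were HOXA5, HOXB2, HOXB3, HOXB4, HOXB5, HOXB6, HOXB7, HOXB8, HOXB9, HOXB13, HOXC6, HOXC8, HOXC9, HOXC10, HOXC11, HOXC12, HOXC13 and HOXD9. The dinucleotide CG, which reads the same on both strands, occurred a median of 19.5 times in the 26 HOX stretches and 11 times in the 35116 stretches of the whole table. At least 10 CG were found in 76.9% of the HOX stretches and in 52.2% of all stretches. Most HOX stretches were from HOXA and HOXD, and HOXA3 entered with several starts. HOXB had only the HOXB1 stretch and HOXC only the shared one. The HOX values therefore describe chiefly HOXA and HOXD. The HOX stretches ranged from 0 CG, at an alternative start of HOXA3, to 40 at HOXA13. To show this range between single-start genes, the HOXA13 stretch (chr7:27200092-27200341, minus strand) and the HOXD4 stretch with 4 CG (chr2:176151300-176151549, plus strand) are given 5′ to 3′ with each CG in capitals:
HOXA13: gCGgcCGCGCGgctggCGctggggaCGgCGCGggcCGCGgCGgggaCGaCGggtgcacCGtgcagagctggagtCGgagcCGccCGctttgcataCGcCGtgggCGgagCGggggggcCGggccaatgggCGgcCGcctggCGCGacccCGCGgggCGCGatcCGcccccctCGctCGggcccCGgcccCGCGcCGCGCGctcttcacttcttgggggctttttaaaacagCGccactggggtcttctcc
HOXD4: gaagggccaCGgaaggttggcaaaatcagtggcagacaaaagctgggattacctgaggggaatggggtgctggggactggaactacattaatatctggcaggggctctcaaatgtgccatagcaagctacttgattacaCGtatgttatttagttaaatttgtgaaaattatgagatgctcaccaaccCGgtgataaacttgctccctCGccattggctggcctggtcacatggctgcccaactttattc
These positions are in GRCh38.p14 and cannot be set beside the hg18 positions of the peaks, so whether a peak covers either stretch was not tested.

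Brpf2 peaks in the HOX clusters lay close together and were sparser in the flanks than in the clusters. Peaks covered 30.0% of the HOXA interval, 15.45% of HOXB, 10.7% of HOXC and 11.8% of HOXD. The flanking 500 kb on the low-coordinate and high-coordinate sides were covered to 0.395% and 0.324% at HOXA, 2.48% and 1.49% at HOXB, 2.30% and 4.22% at HOXC, and 0.405% and 0.888% at HOXD. Each of the 4 clusters was thus covered more densely than both of its flanks. The covered share was 83.5 times that of the flanks at HOXA, 18.2 times at HOXD, 7.80 times at HOXB and 3.29 times at HOXC.

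Counted as peaks, the 4 clusters held 5.88 per 100 kb (exact Poisson 95% interval 4.10 to 8.18) and their flanks 0.675 (0.445 to 0.982). These intervals cover counting error only, and neighbouring peaks are not independent. HOXA had 7.69 peaks per 100 kb (3.69 to 14.1), HOXD 6.36 (2.56 to 13.1), HOXC 5.19 (2.08 to 10.7) and HOXB 5 (2.50 to 8.95). The intervals of the clusters overlap, so an order among them by peak density is not resolved. The 27 flanking peaks were split into 2 at HOXA, 10 at HOXB, 11 at HOXC and 4 at HOXD. Their median score was 357 and their median width 2025 bp. Over all clusters the ratio of covered shares was 10.8. It was 6.73 without HOXA, 18.8 without HOXC and 24.4 when only peaks at or above the median score of the list were kept.

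**Figure D1:**
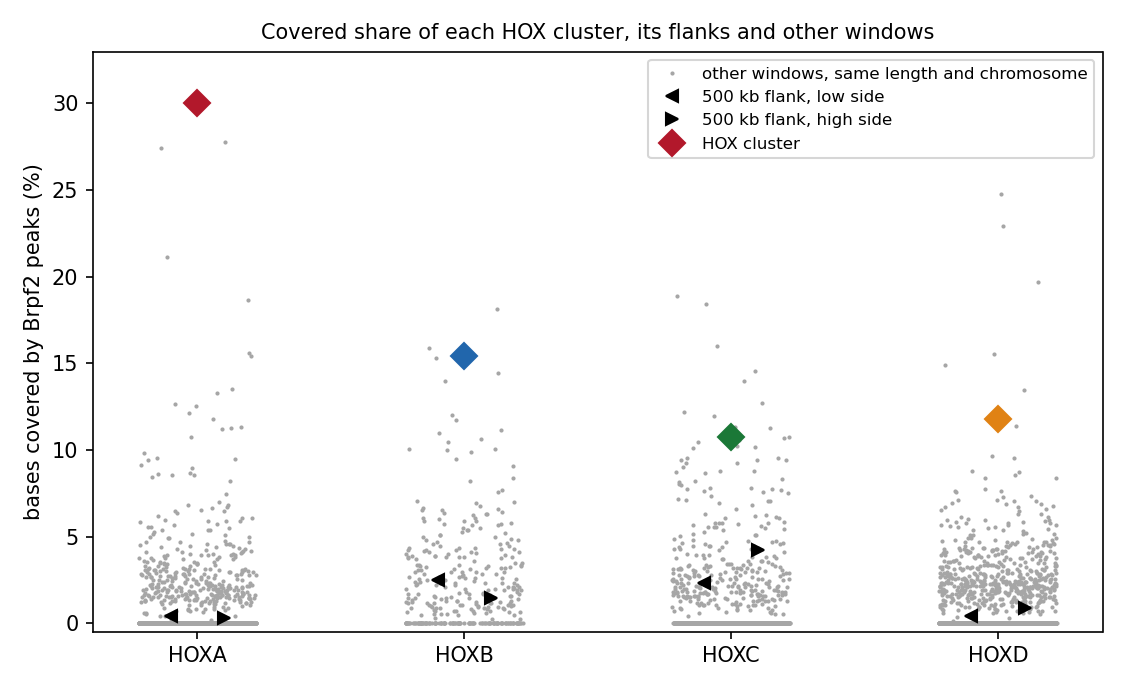
Share of bases covered by Brpf2 peaks (%) for each HOX cluster (diamond), its 500 kb flanks (triangles) and the other windows of the cluster's length on the same chromosome. The windows were laid end to end, so other starting points are not shown (grey points, spread sideways for visibility). HOXA at 30.0% stands above all of its 1212 windows, whereas 11 windows of chromosome 12 reach the 10.7% of HOXC.

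Set against all windows of equal length laid end to end on the same chromosome, the clusters were among the most covered stretches. The windows were not matched for the genes or promoters they hold. Of 1212 windows of 130 kb on chromosome 7, 0 (0%) were covered as much as HOXA, and 836 held no peak. On chromosome 17, 2 of 355 windows of 220 kb (0.563%) reached the share of HOXB. On chromosome 2, 7 of 2203 windows of 110 kb (0.318%) reached that of HOXD, and on chromosome 12, 11 of 975 windows of 135 kb (1.13%) reached that of HOXC. By number of peaks, windows with at least as many as the cluster made up 0% for HOXA, 1.13% for HOXB, 0.410% for HOXC and 0.0454% for HOXD.

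The place of HOXA depends on where windows begin. With a window every 10 kb, 12 of 15744 windows on chromosome 7 reached its 30.0%. All 12 held the widest peak of the list, which spans 54.7 kb from 130229276 to 130283974 and scored 993.66, and they held 2 or 3 peaks each against 10 in HOXA. On all chromosomes, 39 of 298195 such windows reached 30.0%, on chromosomes 7, 8, 9, 11 and 19. Of these, 2 held at least 10 peaks, both on chromosome 19 with 11 peaks and a covered share of up to 31.7%. Chromosome 7 had the window with the highest share, 55.2%, while chromosome 8 reached 41.9% and chromosome 9 reached 35.3%, so HOXA was matched in cover at several places, and on chromosome 19 in number of peaks too. Windows with no peak were counted whether or not they can be aligned to.

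The HOXA cluster held the widest of the 35 peaks and, with HOXB, all of those with the highest score. Each score comes from the authors' peak caller, on a scale the file leaves unstated. Scores pile up at 3100, called the ceiling here although 61 listed peaks score above it, up to 3233.06. None of the HOX peaks does, and the HOX peaks at 3100 cannot be ranked among each other. HOXA peaks are numbered here from the HOXA2 end. Peak 1, from 27101851 to 27104106, scored 1830.34 and stood alone, 17.03 kb from its neighbour. Peak 2, from 27121139 to 27122299, was the weakest of HOXA with a score of 68.01 and a width of 1161 bp. Peak 3, from 27135751 to 27138033, scored 754.81. These 3 peaks covered the HOXA2 side thinly.

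From peak 4 to peak 9 the HOXA peaks followed each other at gaps of 1.81 to 4.06 kb. The 50 kb from 27142001 to 27192000, the most covered stretch of that length in the interval, held these 6 peaks and was covered to 60.4%. Peak 4, from 27147474 to 27150480, scored 3031.39, peak 5, from 27154539 to 27158003, scored 1030.37, and peak 6, from 27160663 to 27163497, scored 2248.13. Peak 7, from 27165957 to 27181302, was at the ceiling and measured 15346 bp, which made it the 7th widest of the 11874 listed peaks. It made up 39.3% of the covered bases of HOXA, and without it the interval would be covered to 18.2%. Peak 8, from 27184471 to 27186612, scored 899.12, and peak 9, from 27188424 to 27191848, was at the ceiling with 3425 bp. Peak 10, from 27204266 to 27207381, the nearest to the HOXA13 end, scored 1098.71. On both sides HOXA was bordered by long stretches without peaks. The next peaks outside lay 230 kb before peak 1 and 461 kb after peak 10, with scores of 457.53 and 459.36.

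**Figure D2:**
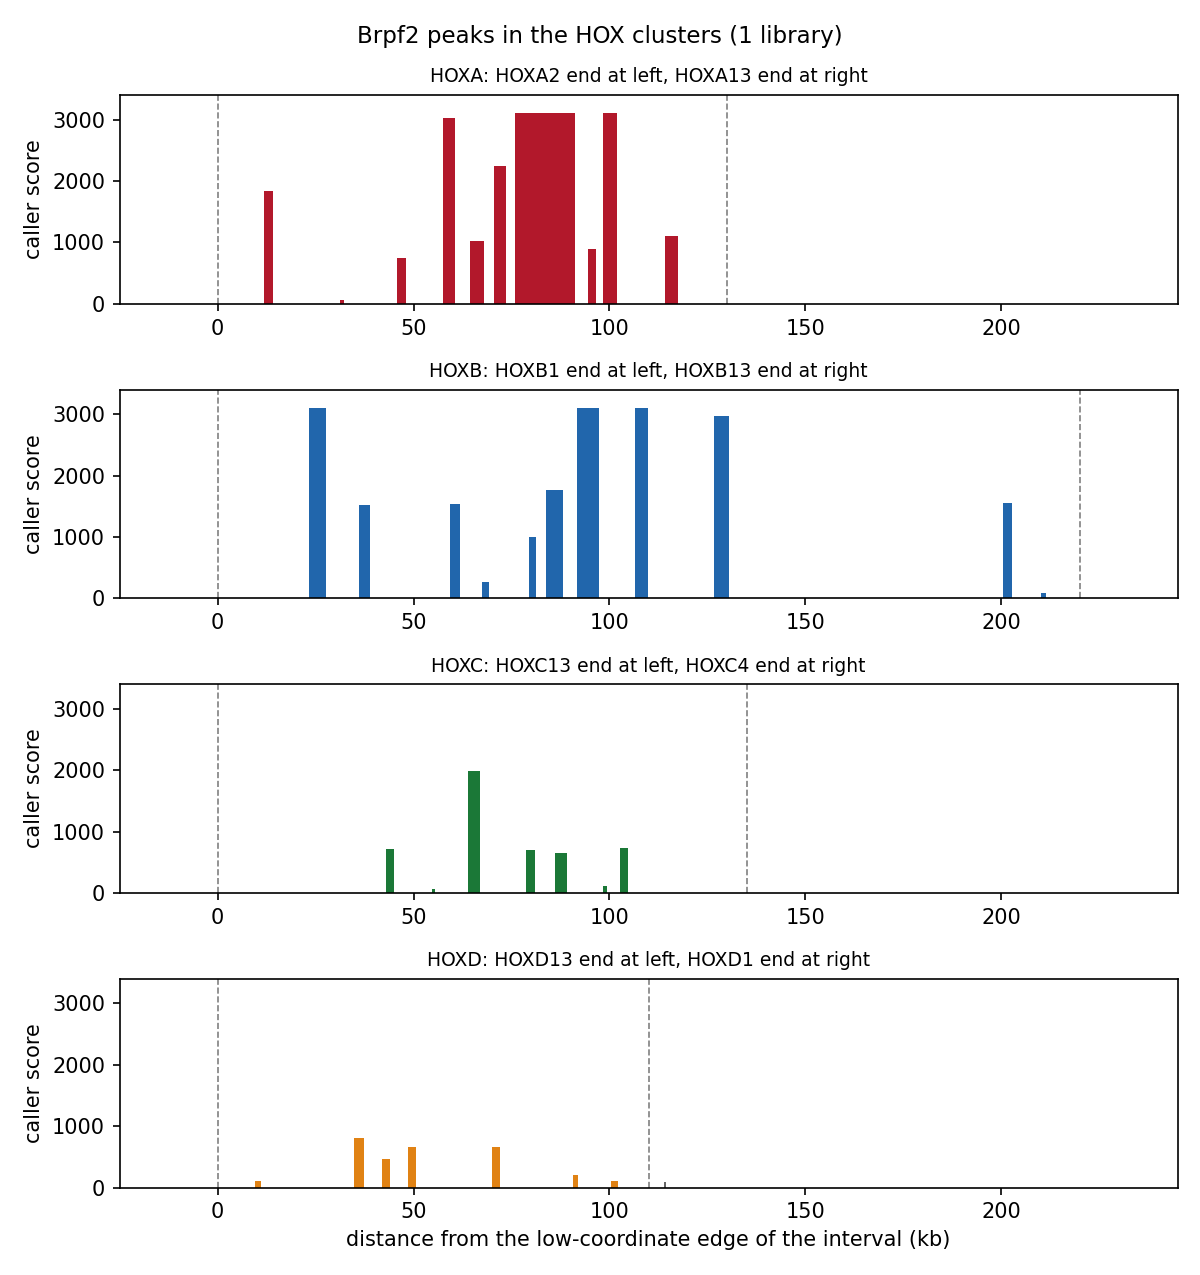
Brpf2 peaks of the HOX clusters by distance from the low-coordinate edge of each interval (kb) and caller score, with bar widths to scale and dashed lines at the interval edges. Coloured bars are peaks of the cluster and grey bars peaks outside it. HOXA and HOXB hold the bars that reach 3100, and none of the HOXD bars exceeds 804.84.

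HOXB carried 3 peaks at the ceiling, the most of any cluster. HOXB peaks are numbered from the HOXB1 end. Peak 1, from 43973353 to 43977637, was at the ceiling with 4285 bp. Peaks 2 and 3, from 43986113 to 43988864 and from 44009441 to 44011980, scored 1526 and 1543.94, and peak 4, from 44017421 to 44019363, scored 262.91. The middle of the cluster was the most covered. Peak 5, from 44029437 to 44031204, scored 1000.98, and peak 6, from 44033856 to 44038040, scored 1769.67. Peak 7, from 44041732 to 44047430, was at the ceiling and with 5699 bp the widest of HOXB. Peak 8, from 44056580 to 44059753, was also at the ceiling, and peak 9, from 44076749 to 44080532, scored 2977.30. The 50 kb from 44010001 to 44060000, which touch peaks 3 to 8, were covered to 37.5%.

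After peak 9 no peak was listed for 69.8 kb, from 44080533 to 44150356, the longest stretch without a peak inside any of the 4 intervals. HOXB13 is known to lie apart from the other HOXB genes, but whether this stretch matches that separation was not tested, since hg18 gene positions were not used. Peak 10, from 44150357 to 44152885, scored 1560.08, and peak 11, from 44160061 to 44161391, scored 96.17 with 1331 bp. Within 500 kb, the nearest peaks outside HOXB scored 56.55 on the HOXB1 side and 69.81 on the HOXB13 side, 47.9 kb and 102 kb from the nearest HOXB peak.

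HOXC had no peak at the ceiling and no peaks at either end of its interval. HOXC peaks are numbered from the HOXC13 end. No peak was listed for the first 43.0 kb of the interval, and the nearest peak before it lay 296 kb from peak 1. Peak 1, from 52652958 to 52655113, scored 721.96. Peak 2, from 52664616 to 52665585, had the lowest score of the 35 peaks, 67.40, and spanned 970 bp. Peak 3, from 52673888 to 52677076, stood out within HOXC with a score of 1990.93 and the cluster's largest width, 3189 bp. Peaks 4 and 5, from 52688609 to 52690906 and from 52696111 to 52699123, scored 703.02 and 655.14. Peak 6, from 52708404 to 52709363, was the narrowest of all 35 with 960 bp and scored 117.75. Peak 7, from 52712822 to 52714709, scored 727.59. Apart from peak 3, the HOXC peaks thus fell either between 655.14 and 727.59 or at 117.75 and below. No peak was listed for the last 30.3 kb, on the HOXC4 side. Beyond it, the flank of 500 kb held 7 peaks, 2 of them at the ceiling and the widest of 7214 bp, so the strongest and widest peaks of this neighbourhood lay outside HOXC. Between 200 and 250 kb from the border this flank was covered to 14.4%, by 1 peak. The most covered 50 kb within HOXC, from 52665001 to 52715000, reached 23.9%.

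HOXD had the lowest median score of the clusters, 459, and no peak at the ceiling. HOXD peaks are numbered from the HOXD13 end. Peak 1, from 176669668 to 176671040, scored 111.84 and was followed by 23.9 kb without a peak. Peaks 2, 3 and 4, from 176694939 to 176697333, from 176702069 to 176704048 and from 176708640 to 176710686, scored 804.84, 459.42 and 652.85. Peak 5, from 176730021 to 176732001, scored 652.96. These 4 peaks formed the most covered 50 kb, at 16.8%. Toward HOXD1, peak 6, from 176750660 to 176752080, scored 202.66 and peak 7, from 176760509 to 176762265, scored 112.41. All 7 peaks were between 1373 and 2395 bp wide, and none exceeded the upper quartile of scores in the list (1381.1). A further peak of 501 bp with a score of 93.45 lay 3.87 kb outside the interval on the HOXD1 side, 11.6 kb from peak 7. It is the nearest peak left out by the interval borders at any of the clusters.

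**Figure D3:**
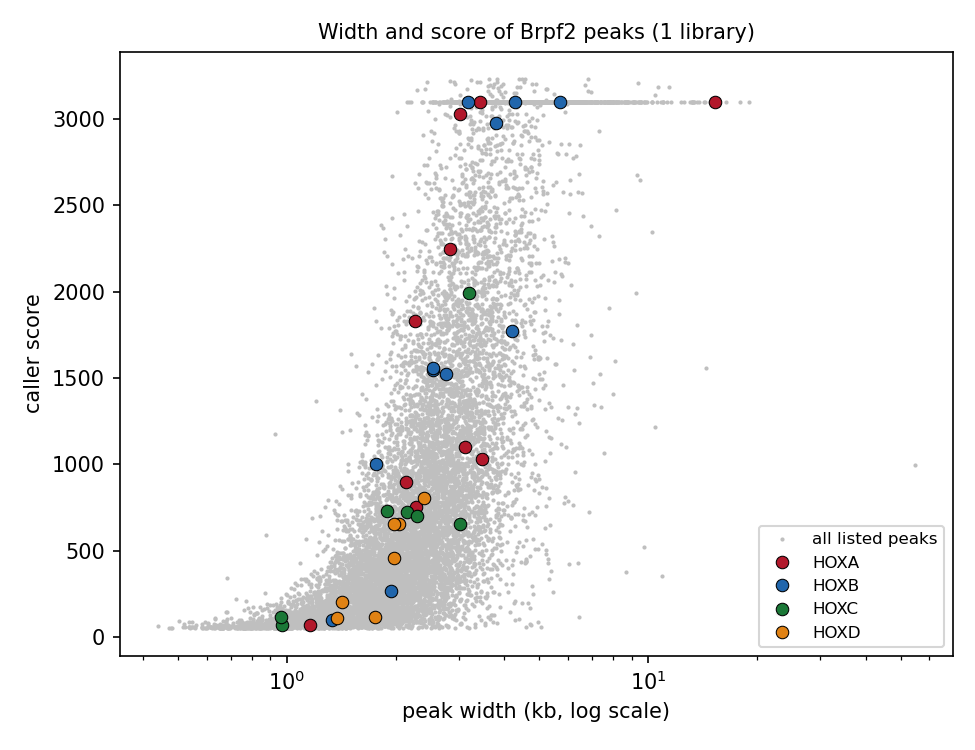
Width (kb, log scale) and caller score of all 11874 listed Brpf2 peaks (grey) and of the 35 HOX cluster peaks (coloured by cluster). The HOX peaks spread over the cloud of all peaks, from 67.40 to 3100, with 1 HOXA peak of 15.3 kb far to the right.

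Taken one by one, the 35 HOX peaks had a higher median score than the list as a whole but an ordinary median width, and HOXD did not share the higher score. Their median score was 899 (quartiles 556 and 1911) against 614 over all peaks (233.9 and 1381), and their median width was 2298 bp against 2332 bp. A score above the median of the list was found for 26 of 35, against 50% of all peaks, and a score above the upper quartile for 14, against 25%. By cluster the peaks above the list median numbered 9 of 10 in HOXA, 9 of 11 in HOXB, 5 of 7 in HOXC and 3 of 7 in HOXD. Those above the upper quartile numbered 5 in HOXA, 8 in HOXB, 1 in HOXC and 0 in HOXD. Whether the shares of 26 and 14 among the 35 peaks differ from those of the list was not tested. The median score was 1465 in HOXA, 1560 in HOXB, 703 in HOXC and 459 in HOXD. The remaining peaks of the same chromosomes had medians of 649, 535, 665 and 689, so the HOXA and HOXB medians lay above that of their chromosome and the HOXD median below it.

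Width and score run together in this list, so each of the 30 HOX peaks below the ceiling was also ranked among all listed peaks within 10% of its width. Of these 30, 20 scored above more than 50% of such peaks, and the median rank was 63.6%. The 5 peaks at the ceiling were left out because ties at 3100 leave only the share of lower-scoring peaks known. That share was 93.5% for HOXB peak 8, 89.1% for HOXA peak 9 and 65.5% for HOXB peak 1. It was 31.3% for HOXB peak 7 and 9.09% for HOXA peak 7, where the median score at that width was itself 3100. Listed peaks at the ceiling were kept in the comparison, so the count of 20 and the median rank describe only HOX peaks below it. HOXA peak 1, of 2256 bp, scored above 95.8% of peaks of its width, HOXA peak 4 above 95.4% and HOXB peak 5, of 1768 bp, above 94.4%. At the other end of these 30, HOXD peak 7, of 1757 bp, scored above 11.5% and HOXA peak 2 above 18.0%. High and low scores for the width therefore both occurred, and both within HOXA.

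At or above the ceiling were 5 of 35 HOX peaks, or 14.3% (exact Clopper-Pearson 95% interval 4.81 to 30.3%), against 8.27% of all peaks, which lies inside that interval. They were 2 HOXA and 3 HOXB peaks. A width of 5 kb or more was reached by 2 peaks, HOXA peak 7 and HOXB peak 7, or 5.71% (0.700 to 19.2%) against 4.55% of all peaks. Neither share is resolved from that of the whole list with 35 peaks. Of the 14 peaks in HOXC and HOXD, 0 were at the ceiling, and in each cluster 0 of 7 allows up to 41.0% by the same exact interval. At the low end, 8 HOX peaks scored under 300, at most 262.91, and none lay between that value and 459.42. In the whole list 30.2% of peaks scored under 300.

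A neighbour within 10 kb, edge to edge, was found for 29 of 35 HOX peaks (82.9%, exact 95% interval 66.4 to 93.4%) against 23% of all peaks. The 29 peaks were 7 of 10 in HOXA, 10 of 11 in HOXB, 7 of 7 in HOXC and 5 of 7 in HOXD. In the flanks of 500 kb it was 9 of 27 peaks (33.3%). A gap of 10 kb or less marks the peaks on both of its sides, so the peaks are not independent, as the interval takes them to be. The median gap between successive HOX peaks was 8.47 kb over 31 gaps. It was 4.06 kb in HOXA, 8.81 kb in HOXB, 8.79 kb in HOXC and 13.5 kb in HOXD, against 70.1 kb over the whole list. These medians are not alike in kind. A gap within a cluster cannot exceed its interval, and the gaps at the cluster borders were left out, whereas gaps of the whole list had no such limit. The short HOX gaps therefore restate the peak density given above and add no separate result.

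Divided into 3 equal parts, each interval was most covered in its middle part. At HOXA the shares from the HOXA2 to the HOXA13 end were 7.89%, 51.5% and 30.7%. At HOXB they were 15.7%, 25.4% and 5.26% from HOXB1 to HOXB13. At HOXC they were 6.33%, 21.3% and 4.54% from HOXC4 to HOXC13, and at HOXD 8.67%, 18.2% and 8.46% from HOXD1 to HOXD13. The outer parts differed in which side was higher: the HOXA13 side was the more covered one at HOXA and the HOXB1 side at HOXB, whereas the 2 ends of HOXD differed little. The intervals reach beyond the listed genes by amounts not measured here, which enters the outer parts. How the shares follow the genes themselves was not tested.

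**Figure D4:**
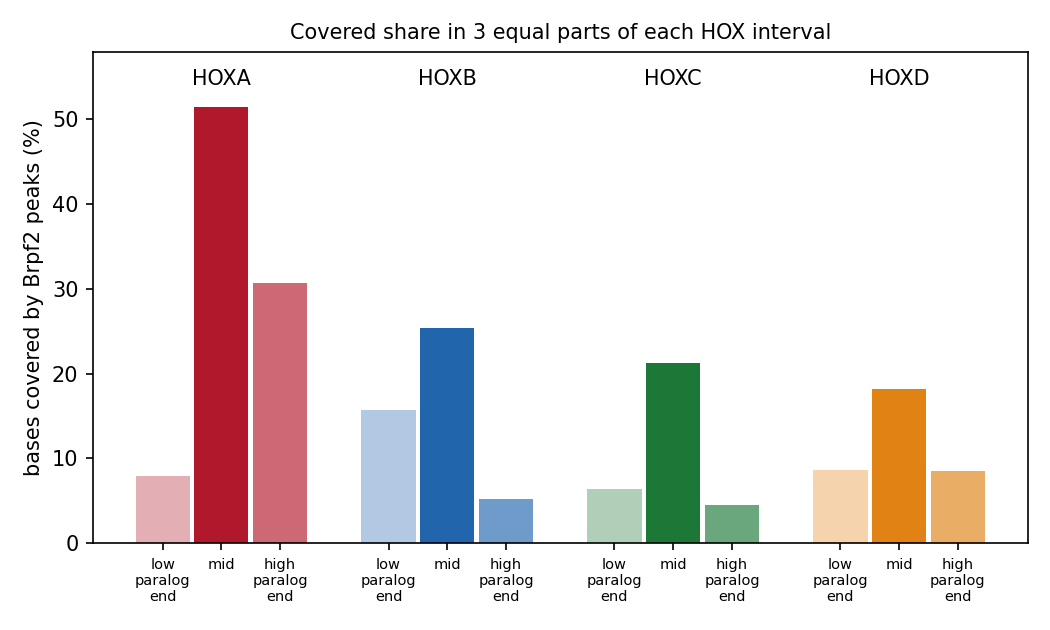
Bases covered by Brpf2 peaks (%) in 3 equal parts of each of the 4 HOX intervals, ordered from the low-numbered to the high-numbered paralog end. Bars start at 0 and come from 1 library. The middle part is the highest bar in each cluster, from 18.2% at HOXD to 51.5% at HOXA.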

How the data were processed

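Brpf2 peaks of 1 library were read from the list deposited by the authors, which gives chromosome, start, end, name and score per peak. The score is the deposited value of the authors' caller, named MACS in the peak names of the file. The sources used here do not give its version, settings, control library or scale. BWA, SAMtools, bedtools and hg18 are named, without versions, in the submitters' processing notes. Starts, counted from 0 in the deposited list, are printed counted from 1.

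Peaks overlapping the 4 intervals by any amount were kept. Covered share, peaks per 100 kb, gaps between peak edges, and ranks among all 11874 peaks were computed in Python 3.11.15 with NumPy 2.4.6 and SciPy 1.17.1. Flanks were 500 kb on each side. Windows of a cluster's length were laid end to end from the first to the last peak of its chromosome, and those touching the cluster were left out. All such windows were counted in place of random ones, and no test was made. Poisson and Clopper-Pearson intervals are exact, at 95%, and cover counting error only. The rule for naming peaks was to describe every peak of the intervals if there were at most 40. The stretches of 50 kb, division into 3 parts and ranks by width were added after the peaks were seen. The intervals and gene list were chosen with earlier results of these data known. The coverage code was tested on simulated data. No hg18 annotation or genome was used, so the planned placing of genes on peaks was not made.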

Additional observations from a re-analysis of the deposited data

How the results depend on the processing

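Of 70 alternative values, 55 kept within 1.5 times the reported value or, for medians, within its exact 95% interval. Joining peaks within 1 kb, or taking peaks by midpoint or whole inclusion, changed none of the reported values it was run for. For the HOX peaks this was fixed in advance, since their gaps were at least 1.81 kb and none crossed an interval edge. So was the number of HOX peaks at the ceiling when peaks below the list median score, HOXC or HOXD were left out. Peak counts without a cluster follow from that cluster's own count. Leaving out peaks below the list median score could only raise the median score of HOX peaks, which became 1535. All these values are counted among the 55, so that count overstates how much was put to the test. With only peaks at or above the median score of the list, the ratio of covered shares to flanks was 24.4, and the windows reaching a cluster's share were 0.282% for HOXB, 0.718% for HOXC and 1.23% for HOXD. Leaving out each cluster in turn gave ratios from 6.73 to 18.8 (10.8 as reported), 24 to 28 peaks, covered shares from 13.2 to 18.7%, median scores from 722 to 1312, median widths from 2156 to 2646 bp and 2 to 5 peaks at the ceiling. The ratio was 14.5 with flanks of 250 kb and 8.80 with flanks of 1 Mb. Among windows with at least 1 peak, the shares reaching the cluster were 0.855% for HOXB, 3.31% for HOXC and 1.26% for HOXD, because the empty windows were left out. Windows every 10 kb gave 0.0762% for HOXA, where windows laid end to end gave 0. Windows on all chromosomes, added after seeing the data, gave 0.00436% for HOXA (1 of 22949), 0.140% for HOXB and 0.848% for HOXD, and with a window every 10 kb on all chromosomes 39 of 298195 (0.0131%) reached the share of HOXA. No paired analysis was possible because each target has 1 library and no test was made. Read counts are not in the list, so the number of weaker HOX peaks that more reads would add is not known.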
